A study of Mus musculus with 12 samples.

Results

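The cytosolic ribosomal protein genes were followed in bone marrow-derived macrophages (BMDMs) from control and ΔTrspM mice, unstimulated or stimulated with lipopolysaccharide (LPS). A gene was a member when a probe set named for it alone carried a symbol starting with Rpl or Rps and a number, or the symbol Rpsa, Rplp0, Rplp1 or Rplp2. S6 kinase symbols (Rps6k) and pseudogene symbols (-ps) were left out, and where several probe sets named a gene the brightest on average over all arrays was read. This rule gave 50 genes of the 18193 measured, with 26 symbols of the Rpl type and 24 of the Rps type. Of these, 7 symbols name a paralog or a binding partner of a ribosomal protein (Rpl22l1, Rpl39l, Rpl3l, Rpl7l1, Rps27l, Rps4l and Rps19bp1), which leaves 22 proteins of the large subunit and 21 of the small subunit. Another 31 ribosomal protein symbols, Rplp1 among them, occurred only on probe sets that list several genes and are therefore no members.

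The study deleted Trsp, the gene of the selenocysteine tRNA on which the synthesis of all selenoproteins depends, in myeloid cells and profiled BMDMs on Affymetrix GeneChip mouse genome arrays. Control cells were Trspfl/fl-LysM-Cre-/- and ΔTrspM cells were Trspfl/fl-LysM-Cre+/-, so both carried floxed Trsp and only the ΔTrspM cells carried Cre, driven by the lysozyme M promoter that is active in macrophages and other myeloid cells. All cells came from female C57BL/6 mice, whose age the labels do not give, and were differentiated for 7 days with M-CSF. Each genotype was left unstimulated or received LPS for 4 h, at a dose that the labels do not give, with 3 arrays labelled as biological replicates in each of the 4 groups. The labels do not say whether a replicate was 1 animal or a pool, so the p-values measure the spread between these samples.

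Every ribosome carries a large and a small subunit, each built from ribosomal RNA and a fixed set of ribosomal proteins, and cells hold ribosomal protein mRNAs in great abundance and in balanced amounts. In mammals most of these mRNAs start with a C followed by a run of pyrimidines, the 5′ terminal oligopyrimidine (TOP) motif, through which mTORC1 and the RNA-binding protein LARP1 control their translation with little change in mRNA level. Macrophages stimulated with LPS divert transcription and translation to inflammatory products, and whether ribosomal protein mRNAs take part in that change, with and without selenoproteins, is what these comparisons address.

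Annotated start sites are printed here for the 4 genes called below under quantile normalization and, to show the motif, for 3 that were not called there and were picked because they have it exactly at the start. RefSeq promoters (GRCm38.p6) were read for 44 of the 50 members, as 52 start sites. Any member start site on a chromosome left out here was not read, while the promoters of all genes kept that chromosome. Each line gives the 30 bases before the annotated start and the 10 bases from the start on, 5′ to 3′ on the strand of the gene, and capitals mark a C followed by at least 4 bases that are each C or T, beginning within 5 bases of the start, taken from the C nearest to it. The windows are chr2:32961682-32961721 on the plus strand for Rpl12, chrX:37085213-37085252 on the minus strand for Rpl39, chr7:109519165-109519204 on the plus strand for Rpl27a and chr15:80264297-80264336 on the minus strand for Rps19bp1. The others are chr17:27635235-27635274 for Rps10 and chr17:33955656-33955695 for Rps18, both on the minus strand, and chr11:114668550-114668589 on the plus strand for Rpl38.
Rpl12: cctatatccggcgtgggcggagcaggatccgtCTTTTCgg
Rpl39: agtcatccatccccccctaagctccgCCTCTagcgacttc
Rpl27a: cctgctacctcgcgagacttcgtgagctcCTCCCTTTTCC
Rps19bp1: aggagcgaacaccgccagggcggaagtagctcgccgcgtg
Rps10: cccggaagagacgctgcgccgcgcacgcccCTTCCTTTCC
Rps18: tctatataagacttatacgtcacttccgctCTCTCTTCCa
Rpl38: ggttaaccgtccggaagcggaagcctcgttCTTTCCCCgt

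Of the 44 start sites of members other than the paralogs and the partner, 8 had such a run exactly at the annotated start, a share of 18.2% against 2.51% of all 32851 promoters in the table. Within 5 bases of the start the share was 43.2% against 18.3%. In Rpl12 the run began 2 bases after the annotated start, in Rpl39 it began 4 bases before it and in Rpl27a the marked stretch began 1 base before it, followed 3 further pyrimidines, was 17 bases long and went on past the printed window. Rps19bp1 had none. The letters CCGGAAG, the core of sites for ETS factors, occurred on either strand in the 300 bases around the start in 43.2% of these promoters and in 8.86% of all promoters. The GC box letters GGGCGG were found in 54.5% against 35.7%, AAGATGGC, the core of the YY1 site, in 6.82% against 2.75%, and the TATA box letters TATAAA in 11.4% against 13.6%. These are matches of letters and not measured sites. The 8 members with a run exactly at the start were Rpl14, Rpl35, Rpl38, Rplp2, Rps10, Rps18, Rps27 and Rps6.

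Signals are given as log2 of the quantile-normalized signal plus 16. The mean signal of the arrays as deposited ran from 199.7 to 861, and the dimmest array was ΔTrspM LPS replicate 2, with 47.7% of its probe sets under 16 against 16.1% to 28.8% on the other 11 arrays. Macrophage markers were all present (8 of 8 with a mean over the arrays of 6 or more), as were stromal (7 of 7) and neutrophil markers (5 of 5), while none of the 5 lymphoid and 3 erythroid markers reached 6. The summed signal of the stromal markers ran from 437.1 to 7019 over the unstimulated control arrays, from 827.2 to 7415 over the unstimulated ΔTrspM arrays, from 3964 to 4707 over the control LPS arrays and from 2868 to 8507 over the ΔTrspM LPS arrays. The LPS stimulus was visible in every cytokine listed to check it (8 of 8 higher, median log2 fold change 5.30, with Il6 at 7.80). No probe set was named for Trsp, so the deletion itself was not checked on these arrays. In these bulk cultures, fewer cells of a type and less RNA per cell cannot be told apart.

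Most ribosomal protein genes lay near the top of the signal range. The mean over the 12 arrays was at least 13 for 34 of the 50 members, in each case within the brightest 1% of probe sets, and members made up 12.5% of the 272 genes that bright. These 34 comprised most subunit proteins, among them the stalk proteins Rplp0 and Rplp2, Rpsa, Rpl4, Rpl11, Rps3, Rps19 and Rps29. Another 14 lay between 6 and 13 (Rpl12, Rpl14, Rpl27a, Rpl37, Rpl39, Rps6, Rps25, Rps27 and the paralogs or partner Rpl22l1, Rpl39l, Rpl7l1, Rps27l, Rps4l and Rps19bp1). Only Rps16, at 4.28, and Rpl3l, the muscle paralog of Rpl3, at 5.29, had a mean under 6. Signals of different probe sets cannot be read as relative mRNA amounts, and a low value here belongs to the probe set. Rps16 is also listed with other genes on 2 further probe sets, whose average LPS differences were -0.25 and -0.04 on the log2 scale.

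On the quantile scale the arrays of a group differed little among the 34 bright members. The residual standard deviation had a median of 0.10 over these members and of 0.40 over all genes, most of them dimmer. Quantile normalization gives each rank the same value on every array, so this spread is set in part by the scaling. With no scaling the bright members' median deviation ran from -1.09 to 0.23 over the ΔTrspM LPS arrays. Rps29, a small subunit protein, reached the highest value that the quantile scale allows (14.25) on 5 of the 12 arrays, where no further rise could be seen. For the bright members on the quantile scale, the median of the deviation from each gene's own mean was 0.05, 0.05 and 0.07 on the control unstimulated arrays (replicates 1 to 3). On the ΔTrspM unstimulated arrays it was 0.07, 0.05 and 0.06. It was -0.04, -0.14 and -0.01 on the control LPS arrays and 0.02, -0.17 and -0.01 on the ΔTrspM LPS arrays. All 6 LPS arrays thus lay below all 6 unstimulated arrays on this scale, and replicate 2 was the lowest in both LPS groups. Of the 34 bright members, 21 were lowest on replicate 2 among the control LPS arrays and 30 among the ΔTrspM LPS arrays. The median deviation over all genes was also lowest on replicate 2 in both LPS groups, at -0.12 in control and -0.10 in ΔTrspM cells.

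**Figure D1:**
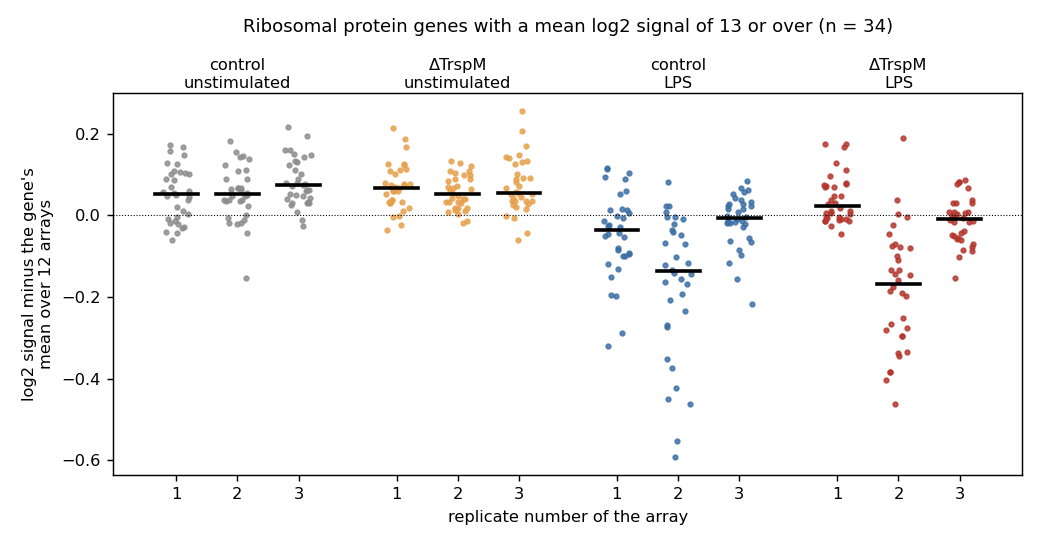
Each point is 1 of the 34 ribosomal protein genes whose log2 signal averaged 13 or more, plotted as its quantile-normalized log2 signal on an array minus its mean over the 12 arrays, and the black bar is the median of the array. The medians lie between 0.05 and 0.07 on the unstimulated arrays and between -0.17 and 0.02 on the LPS arrays, with replicate 2 lowest after LPS in both genotypes, while centring the arrays on their median gave these genes a positive LPS difference (median 0.25 in the average).

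Under LPS few ribosomal protein genes passed the test against the spread of their replicates. In control cells 0 of the 50 members were called higher and 1 was called lower at an adjusted p under 0.05 (limma, Benjamini-Hochberg over all genes), against 7.09% and 8.54% of all genes and 15.6% in either direction. In ΔTrspM cells 1 was called higher and 1 lower, against 7.29% and 8.51% of all genes and 15.8% in either direction. With both genotypes averaged, 2 were called higher and 2 lower, against 11.8% and 16.5% of all genes and 28.2% in either direction. None of the 34 bright members was called in limma, while of all 272 genes that bright 3.68% were called in control cells, 4.78% in ΔTrspM cells and 12.9% in the average, and 1 bright member (Rps19) reached an unadjusted p under 0.05 in the average. At an unadjusted p under 0.05, limma found 3 members in control cells, 3 in ΔTrspM cells and 6 in the average, against 28.1%, 28.5% and 38.1% of all genes.

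On the quantile scale the size of the differences was small as well. The median log2 fold change over the 50 members was -0.12 in control cells, -0.09 in ΔTrspM cells and -0.12 in the average, where the medians of all genes were -0.05, -0.03 and -0.02. Without replicate 2 in all groups the members' medians were -0.08, -0.04 and -0.06, and in the average 3 members were called higher and 1 lower. The medians and called shares of all genes in that refit are not given here, so these values are not set against a background. In the average of all arrays, the 34 bright members lay between -0.30 and 0.0053 and 33 of them were below 0. The 95% interval of 29 of these 34 was contained within ±0.5. The lowest was Rps19, a small subunit protein mutated in Diamond-Blackfan anaemia, with -0.30 ± 0.12 (standard error) and an adjusted p of 0.0966 in limma. Rpsa, which is also known as the laminin receptor, followed with -0.28 ± 0.16 and an adjusted p of 0.228. The stalk proteins Rplp0 and Rplp2 stood at -0.06 and -0.03 with adjusted p-values of 0.712 and 0.863 in limma.

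Both the direction and the size of these differences depended on how the arrays were scaled. The negative medians above hold for quantile normalization, while with arrays centred on their median the members had 0.19 in control and 0.25 in ΔTrspM cells, and with arrays centred on their 75th percentile 0.42 and 0.82. With no scaling the medians were -0.11 and -0.46, beside -0.25 and -0.73 over all genes. Centring on the 75th percentile also shifted the median of all genes to 0.27 and 0.54. Relative to all genes the members lay 0.06 to 0.10 lower under quantile normalization and 0.14 to 0.27 higher under the other 3 settings, over both genotypes and their average. Those 3 settings differ only by a constant for each array, so this distance is the same in all of them by construction. The counts followed the scaling, since 36 members were called higher in the average when arrays were centred on their 75th percentile, 33 of them bright members, with 35.2% of all genes called higher there. With median centring 1 member was called higher (13.2% of all genes) and with no scaling 0 (3.08%). In ΔTrspM cells alone 32 were called higher with the 75th percentile (25.8% of all genes) and 0 with no scaling (1.43%).

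**Figure D2:**
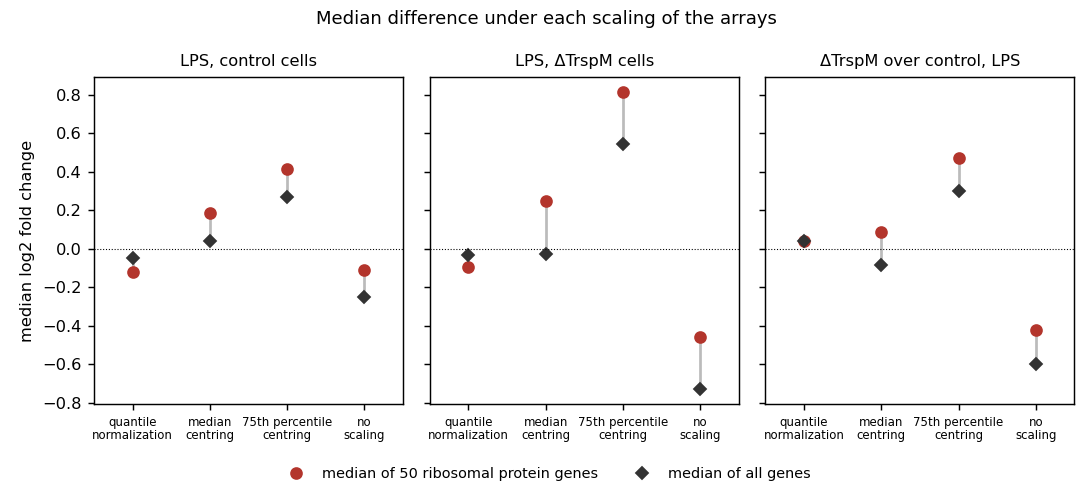
Median log2 fold change of the 50 ribosomal protein genes (red circles) and of all genes (dark diamonds) under 4 ways of scaling the arrays, for LPS over unstimulated in control cells, the same in ΔTrspM cells, and ΔTrspM over control after LPS. The red circle lies below the diamond in both LPS panels with quantile normalization and above it with the other 3 settings.

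Replicates of the same number could be compared within a genotype, because their deviations moved together. Among control cells 30, 33 and 32 of the 34 bright members were lower after LPS in the pairs of replicates 1, 2 and 3. Among ΔTrspM cells the counts were 20, 32 and 26. The median differences in these pairs were -0.08, -0.16 and -0.09 in control cells and -0.03, -0.19 and -0.09 in ΔTrspM cells, all on the quantile scale. Over all genes the medians in these pairs were -0.03, -0.07 and -0.08 in control cells and 0.03, -0.07 and -0.10 in ΔTrspM cells. In the pairs of replicate 3 the bright members thus lay close to all genes. Of the 34, 15 were lower in all 6 pairs. The share of all genes lower in these pairs is not given here, so the pair counts are not set against a background. In control cells 18 members had LPS arrays that all lay below the unstimulated arrays, with 19.4% of all genes doing so, and in ΔTrspM cells 17, with 19.5%. The reverse held for 2 members in control cells (Rpl27a and Rpl39) and for Rpl39 in ΔTrspM cells, with 14.7% and 14.8% of all genes. Over both genotypes together 8 members did (Rpl4, Rpl6, Rpl12, Rpl19, Rpl27, Rpl37a, Rps19 and Rps27l), against 11.4% of all genes, and Rpl39 alone lay above, against 7.39%.

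**Figure D3:**
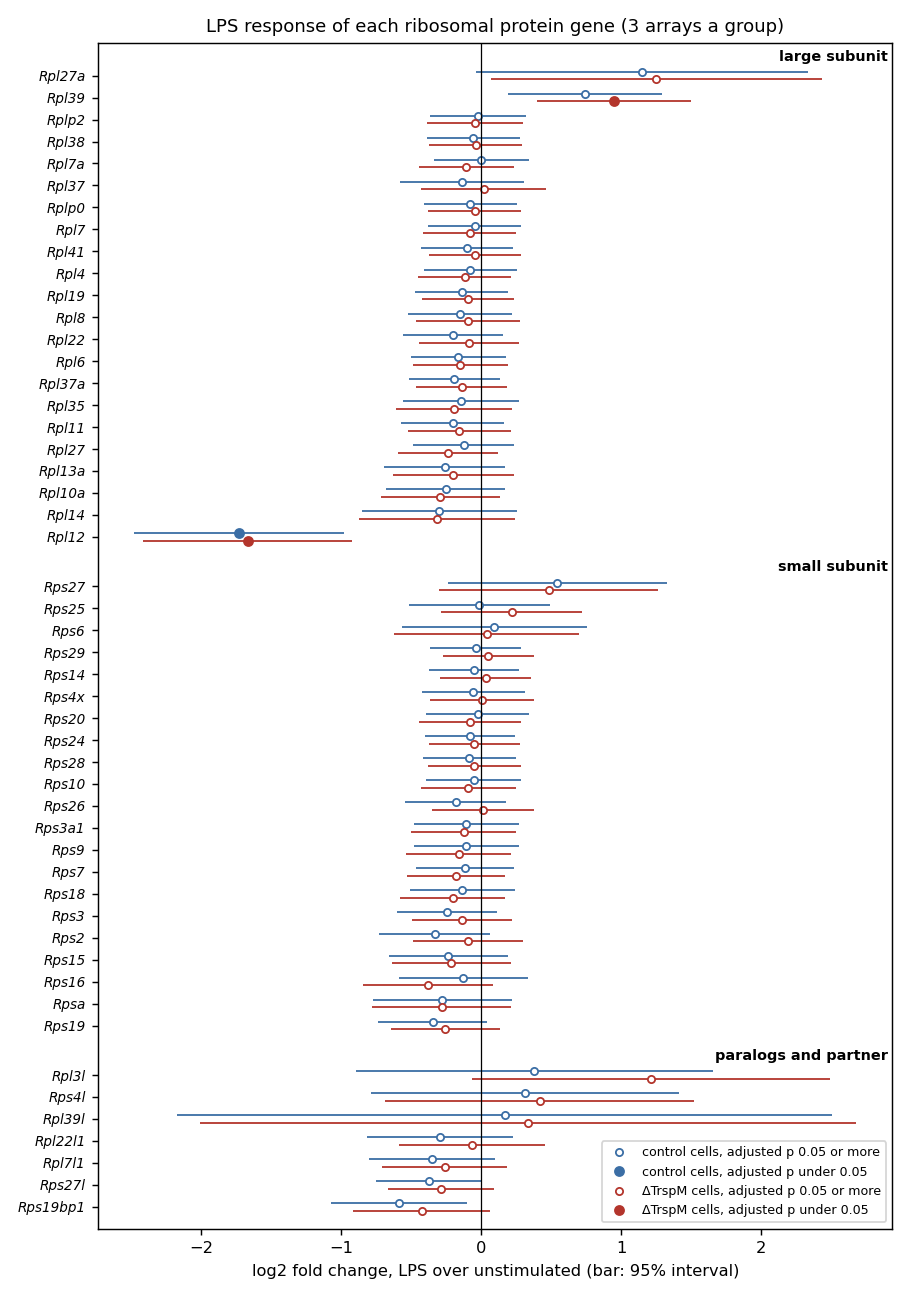
Log2 fold change of LPS over unstimulated for each of the 50 ribosomal protein genes in control (blue) and ΔTrspM cells (red), with 95% intervals from limma and filled points at an adjusted p under 0.05. Most genes sit just below 0 in both genotypes on this quantile scale, which median centring turns to medians of 0.19 and 0.25, Rpl12 lies at -1.73 and -1.67, and Rpl39 at 0.74 and 0.95.

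Rpl12, a large subunit protein that binds ribosomal RNA at the base of the stalk, was the member that fell most clearly. In control cells its probe set read 9.69, 10.38 and 9.45 on the unstimulated arrays and 7.94, 8.64 and 7.75 after LPS. In ΔTrspM cells it read 9.98, 10.08 and 9.13 unstimulated and 8.33, 8.02 and 7.83 after LPS. Every LPS array lay below every unstimulated array. The log2 fold change was -1.73 ± 0.34 in control cells and -1.67 ± 0.34 in ΔTrspM cells (± standard error, adjusted p = 0.00535 and 0.0071 in limma), a fall of 3.25-fold in the average (adjusted p = 0.000323). The call held in limma without any 1 array and under every scaling. Probe sets that list Rpl12 together with other genes gave average differences of -0.14 and -0.14, which were not called, so the size of the fall belongs to this probe set and not to all sequences attributed to the gene.

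Rpl39, a small protein lining the exit tunnel of the large subunit, was the member that rose with non-overlapping groups. It read 7.92, 8.48 and 8.37 in unstimulated control cells and 8.66, 8.97 and 9.37 after LPS. In ΔTrspM cells the values were 8.21, 7.94 and 8.54 unstimulated and 9.26, 8.96 and 9.32 after LPS. All LPS arrays lay above all unstimulated arrays. The log2 fold change was 0.95 ± 0.25 in ΔTrspM cells (adjusted p = 0.0251 in limma) and 0.74 ± 0.25 in control cells (adjusted p = 0.0706, and 0.0332 with the replicate block, under which 22.6% of all genes were called in control and 22.5% in ΔTrspM cells), with 0.85 in the average (adjusted p = 0.00411). The rise depended on the scaling, since median centring gave 0.44 (limma adjusted p = 0.132) and unscaled arrays gave -0.06 (0.936). In ΔTrspM cells alone the call was lost without unstimulated replicate 1 or 2 or LPS replicate 1 or 3, with a highest adjusted p of 0.0955. A probe set that lists Rpl39 with another gene gave 0.11.

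Rpl27a, another large subunit protein, was called higher in the average only. Its control arrays read 7.41, 7.41 and 7.34 unstimulated and 8.05, 8.70 and 8.85 after LPS. The ΔTrspM arrays read 7.23, 8.29 and 7.53 unstimulated and 8.69, 10.36 and 7.74 after LPS. The control groups did not overlap, whereas in ΔTrspM cells unstimulated replicate 2 lay above LPS replicate 3. The average log2 fold change was 1.20 ± 0.38 (adjusted p = 0.0359 in limma). It was 0.79 with median centring (limma adjusted p = 0.0575), 0.29 with no scaling (0.561) and 0.52 over the mean of its probe sets (0.133). The call was lost in 7 of the 12 fits that left out 1 array: each control unstimulated array, ΔTrspM unstimulated replicates 1 and 3, and control LPS replicates 2 and 3. A second probe set of Rpl27a, with a mean of 5.05, gave -0.16, and a probe set that lists it with other genes gave -0.12.

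Rps19bp1, which binds Rps19 and regulates the deacetylase SIRT1, is no component of the ribosome and entered by its symbol. It read 10.29, 10.27 and 10.37 in unstimulated control cells and 9.86, 9.43 and 9.89 after LPS. In ΔTrspM cells it read 10.34, 10.49 and 10.37 unstimulated and 10.43, 9.71 and 9.79 after LPS, where replicate 1 remained at the unstimulated level. The average log2 fold change was -0.51 ± 0.16 (adjusted p = 0.0319 in limma). It was -0.40 with arrays centred on the 75th percentile (limma adjusted p = 0.105), -0.80 with median centring (0.0211) and -1.29 with no scaling (0.0234). The limma call was lost in 8 of the 12 fits that left out 1 array (control unstimulated replicate 1 or 3, any ΔTrspM unstimulated array, control LPS replicate 2, or ΔTrspM LPS replicate 2 or 3), and the fold change without replicate 2 in all groups was -0.35 (adjusted p = 0.215).

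Rps27l, a paralog of Rps27 that p53 induces, was lower after LPS on all arrays, with 13.11, 12.90 and 13.33 in unstimulated control cells, 12.73, 12.64 and 12.85 after LPS, and 13.17, 13.03 and 13.23 against 12.85, 12.86 and 12.84 in ΔTrspM cells. The average log2 fold change was -0.33 ± 0.12 with an adjusted p of 0.0628 in limma, which became 0.0367 with the replicate block, where 34.8% of all genes were called. Its other probe sets gave -0.39 and -0.38. Rps27 itself, read by the only probe set named for it alone, stood at 0.51 ± 0.25 (limma adjusted p = 0.163). A probe set that lists Rps27 with another gene gave -0.10. Of the remaining paralogs, Rpl7l1 had -0.31, Rpl22l1 -0.18, Rpl39l 0.25, Rps4l 0.36 and Rpl3l 0.80 in the average, and none was called by limma. The proteins that some of these are named after stood at -0.15 (Rpl22), -0.07 (Rpl7) and -0.03 (Rps4x).

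**Figure D4:**
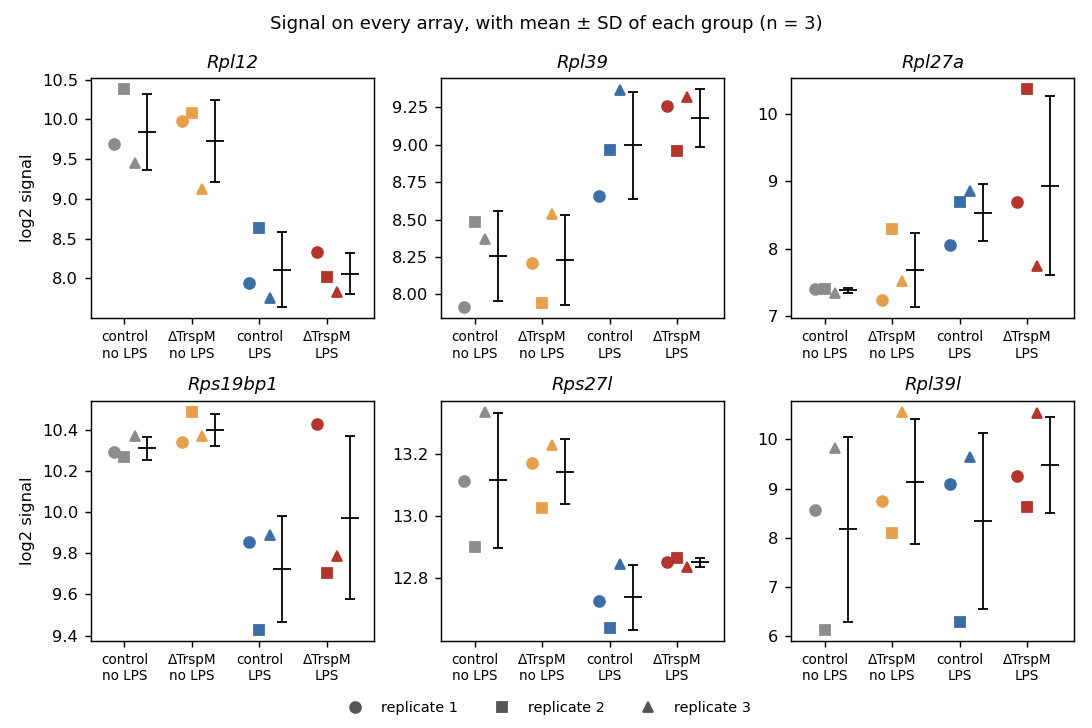
Quantile-normalized log2 signal of 6 ribosomal protein genes on each of the 12 arrays, with circles, squares and triangles for replicates 1, 2 and 3 and the mean ± SD of each group of 3 beside them. The LPS arrays of Rpl12 and Rps27l all lie below the unstimulated arrays, those of Rpl39 all above, and Rpl39l is lowest on replicate 2 in every group.

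Where a member had several probe sets they mostly gave the same direction. Of the 24 members with more than 1 probe set, 19 had the same sign of the average LPS difference in all of them. The range within a gene had a median of 0.17 and reached 1.36. The members had 106 probe sets named for 1 gene in total. A limma fit of all probe sets called 21.8% of them in the average, in either direction. In that fit some dimmer probe sets of bright members, not read above, were called lower. These belonged to Rpl22 (-1.33), Rpl41 (-1.29), Rps18 (-0.84), Rps3 (-0.81) and Rpl13a (-0.59), and no such probe set was called higher. The probe sets that list several symbols, at least 1 of them of ribosomal protein type, numbered 110 and added the 31 symbols missing from the members. Their median LPS difference was -0.12 in the average, -0.13 in control and -0.08 in ΔTrspM cells. In a limma fit of all probe sets 3 of them were called higher and 5 lower in the average, against 21.8% of all probe sets, and they ranged from -0.88 to 1.01. The probe set that lists Rplp1, the third stalk protein, stood at -0.02. Fau, a small subunit protein made as a fusion and outside the symbol rule, had -0.15 (limma adjusted p = 0.349).

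Deletion of Trsp was not accompanied by a call for any ribosomal protein gene. In unstimulated cells 0 of 50 members were called in limma, with 0% of all genes called. After LPS 0 of 50 were called, with 0.011% of all genes called, and averaged over both stimuli 0 of 50, with 0.022% (0.033% with the replicate block). The number of members at an unadjusted p under 0.05 was 0 in each of these comparisons, whereas 2.39%, 5.78% and 4.88% of all genes reached it. The fit with the replicate block and, within each stimulus, the methods' t-test at an unadjusted p under 0.01 called 0 members too. The interaction, which asks whether LPS acted differently in ΔTrspM cells, gave 0 of 50 calls, 0 at an unadjusted p under 0.05 (3.05% of all genes), and 0% of all genes called.

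The intervals of the genotype differences hold for the quantile scale, on which the bright members lie close to its upper end. For the 34 bright members the ΔTrspM minus control difference lay between -0.05 and 0.08 in unstimulated cells, between -0.12 and 0.27 after LPS, and between -0.09 and 0.15 in the average, where the 95% intervals reached from -0.35 to 0.42. All 34 intervals of the average lay within ±0.5, while the median of these members after LPS was 0.02 on this scale, 0.53 with arrays centred on the 75th percentile and -0.36 with no scaling. Over all 50 members the median difference was 0.0072 in unstimulated cells and 0.04 after LPS, beside 0.04 and 0.04 over all genes. With arrays centred on their 75th percentile the median after LPS was 0.47, and with no scaling it was -0.42, while all genes shifted to 0.30 and -0.60 under the same settings. For the interaction the members' median was 0.04, and only 3 of 50 intervals lay within ±0.5, so a difference in LPS response of that size was not detectable for most genes.

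After LPS the ΔTrspM arrays all lay above the control arrays for 3 members, Rpl37a, Rps14 and Rps29, against 5.37% of all genes, and all below for none, against 3.77%. Their differences were 0.06, 0.09 and 0.07 on the log2 scale, with adjusted p-values of 0.991, 0.972 and 0.987 in limma. Rps29 stood at 14.13, 14.22 and 14.20 in control cells and at the top of the scale, 14.25, on all 3 ΔTrspM arrays. No member separated the genotypes in unstimulated cells, where 7.32% of all genes did, or over both stimuli, where 0.132% did. By their unadjusted p, the small subunit proteins Rps2 (0.27, adjusted p = 0.944 in limma) and Rps26 (0.21) came next to Rpl22l1 after LPS. Rps6, the target of S6 kinases, had 0.25 in the average of both stimuli (adjusted p = 0.963), and Rpl3l had the interaction with the smallest p, 0.83 on the log2 scale.

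The paralogs and the partner all lay higher in ΔTrspM than in control cells after LPS on the quantile scale, none of them called. Of all 18193 genes, 10057 lay above 0 in that comparison. The 7 differences had a median of 0.38 and a range of 0.04 to 1.13, against a median of 0.02 for the other 43. In unstimulated cells 5 of the 7 lay above 0, as did 10271 of the 18193 genes. The median after LPS was 0.02 with median centring and -0.49 with no scaling, 0.11 above the median of all genes in both. Rpl39l, the testis-enriched paralog of Rpl39, read 8.56, 6.13 and 9.83 in unstimulated control cells and 8.76, 8.10 and 10.55 in unstimulated ΔTrspM cells. After LPS it read 9.09, 6.30 and 9.64 in control and 9.25, 8.63 and 10.54 in ΔTrspM cells. The ΔTrspM array was the higher in all 6 pairs of the same number, yet the groups overlapped and the spread between replicates was wide.

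For Rpl39l the average genotype difference was 1.05 with a 95% interval of -0.61 to 2.71 (adjusted p = 0.963 in limma, 0.392 with the replicate block). Replicate 2 was its lowest array in every group. The summed stromal signal on the arrays of replicate 2 was 437.1, 827.2, 4707 and 2868 for control unstimulated, ΔTrspM unstimulated, control LPS and ΔTrspM LPS cells, which was the lowest of the group except among control LPS arrays. Its part in the Rpl39l values was not tested. Rpl22l1, the paralog of Rpl22, was the only other member higher in ΔTrspM cells in all 6 pairs, so that 2 of 50 members showed a pattern seen in 4.85% of all genes. Rps18 was lower in all 6 pairs, as were 2.4% of all genes. After LPS Rpl22l1 read 12.44 ± 0.45 in control and 12.84 ± 0.17 in ΔTrspM cells (mean ± SD, n = 3), with control replicate 2 the lowest at 11.93. This difference of 0.39 for Rpl22l1 had a 95% interval of -0.13 to 0.92 (limma adjusted p = 0.918).

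Genes that make and assist ribosomes were read in the same LPS comparison, averaged over genotypes, and their difference from the ribosomal proteins was not tested. Of 64 nucleolar ribosome biogenesis factors, 30 were called lower and 5 higher in the average, with a median log2 fold change of -0.42, against 16.5% of all genes called lower and 11.8% called higher. Rrp1b, a nucleolar protein, fell by 2.41 (adjusted p = 4.06e-05 in limma). Gnl3 (nucleostemin) fell by 1.51 and Imp3, a part of the U3 small nucleolar ribonucleoprotein, by 1.29. Sbds, which acts late in large subunit maturation, rose by 1.51 (limma adjusted p = 7.8e-05). Under median centring, centring on the 75th percentile and no scaling, 29, 18 and 37 of the 64 were lower and 2, 8 and 2 higher. Of all genes 20.5%, 12.1% and 23% were lower and 13.2%, 35.2% and 3.08% higher under these settings.

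RNA polymerase I, which transcribes the large ribosomal RNA precursor, had 4 of 15 genes called lower and 0 higher, which is 26.7% beside the 28.2% of all genes called in either direction. With the replicate block 5 were lower and 1 higher. The 4 without the block were Polr1b at -1.34, Cd3eap at -1.30, Polr1a at -0.81 and Polr1d at -0.48. Of 10 ribosomal protein chaperones and importers 4 were lower and 0 higher (40%), namely the import receptors Tnpo1 (-1.12) and Ipo7 (-0.81), Nap1l1 (-0.69) and Bccip (-0.52). Myc, a transcription factor that drives ribosome production, fell by 2.41 in limma (adjusted p = 2.12e-05), from the list of mTORC1, S6 kinase and related regulators, of which 6 of 18 were lower and 2 higher (44.4%). Larp1, which binds TOP mRNAs, rose by 0.91 (limma adjusted p = 0.00241), and the S6 kinase family gene Rps6ka3 fell by 0.87 (adjusted p = 0.00129). These counts depended on the scaling. Median centring gave 5 polymerase genes, 8 chaperones and 8 regulators lower and 0, 0 and 2 higher, beside 20.5% and 13.2% of all genes. Centring on the 75th percentile gave 3, 1 and 6 lower and 0, 0 and 5 higher, beside 12.1% and 35.2% of all genes.

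**Figure D5:**
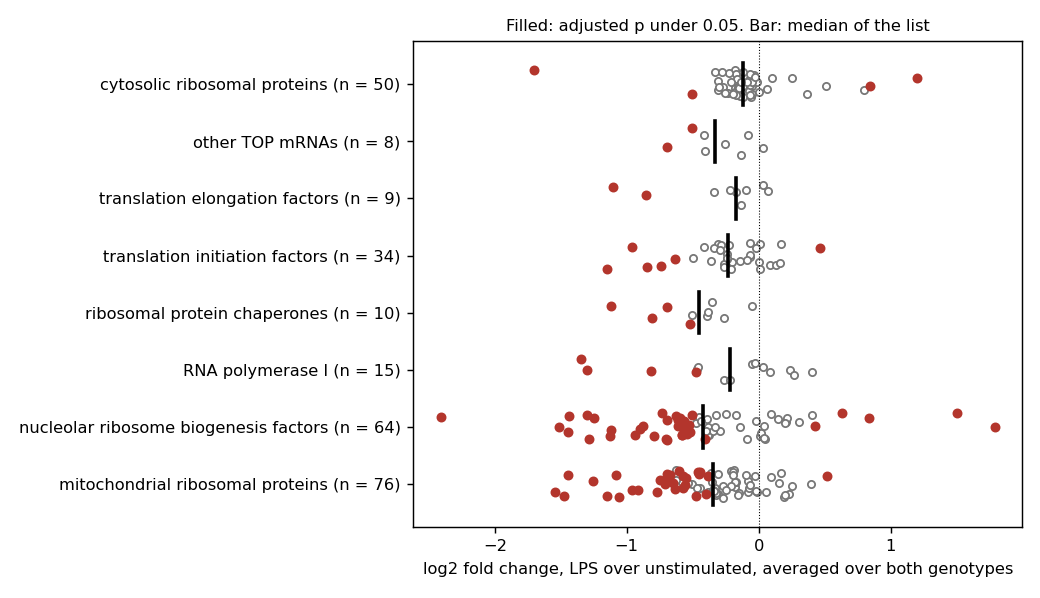
Log2 fold change of LPS over unstimulated, averaged over both genotypes, for each gene of the cytosolic ribosomal proteins and of 7 lists of related genes, with filled points at an adjusted p under 0.05 in limma and a black bar at the median of each list. The 50 ribosomal proteins gather near -0.12 on the quantile scale (0.20 with median centring), while the nucleolar factors (median -0.42) and mitochondrial ribosomal proteins (median -0.35) spread further to the left.

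Mitochondrial ribosomal proteins, which build the separate ribosome of mitochondria, were measured as 76 genes. In the average 28 were called lower and 1 higher, against 16.5% and 11.8% of all genes, with a median of -0.35. The smallest p-values belonged to Mrpl49 (-1.55), Mrpl18 (-1.48), Mrpl51 (-1.15) and Mrpl41 (-1.26). With median centring, centring on the 75th percentile and no scaling, 34, 18 and 34 were lower and 0, 2 and 0 higher, beside 20.5%, 12.1% and 23% of all genes lower and 13.2%, 35.2% and 3.08% higher. For genotype, 0 of the 76 were called, and 71 lay above 0 in the average with a median of 0.16 against 0.04 over all genes, a sign that median centring (-0.08) and no scaling (-0.38) turned.

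Among other genes whose mRNAs carry the TOP motif or that act in translation, 17.6% to 25% of a list were called in the average, with 28.2% of all genes called. Of 8 other TOP mRNAs 2 were lower, Nap1l1 (-0.69) and Npm1 (-0.50), and the median was -0.33. Of 9 elongation factors 2 were lower, Eif5a2 (-1.10) and the elongation factor 2 kinase Eef2k (-0.85), whereas Eef1b2 stood at -0.17 (limma adjusted p = 0.294). Of 34 initiation factors 5 were lower (8 with the replicate block) and 1 higher, with Eif4ebp2, an inhibitor of cap-dependent initiation, at -1.15, Eif4b at -0.96, Eif1b at -0.85 and Eif4a2 at -0.74. Centring on the 75th percentile turned these counts to 4 higher and 0 lower of the other TOP mRNAs, 4 and 2 of the elongation factors, and 8 and 4 of the initiation factors, where 35.2% of all genes were higher and 12.1% lower.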

How the data were processed

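Total RNA of 12 BMDM samples had been hybridised to Affymetrix arrays. The authors normalized the deposited signal intensities, linear values per probe set, in Expression Console (how probes were summarized: not given in the sources used here). From 45101 probe sets, 64 controls were left out and 34945 named exactly 1 gene, 18193 genes in all. Intensities were quantile-normalized between arrays, 16 was added and log2 was taken, so that changes of dim genes are understated. A linear model with 4 groups was fitted to all genes in limma 3.58.1 (R 4.3.3), with Benjamini-Hochberg adjustment over all genes, a threshold of 0.05 and 8 residual degrees of freedom. Exact permutation of 3 against 3 arrays cannot give a two-sided p below 0.1. Comparisons were LPS against unstimulated and ΔTrspM against control, within each level of the other factor and averaged, and the interaction.

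Deviations of same-numbered arrays in compared groups correlated in all 12 pairs (r = 0.126 to 0.443, others -0.386 to 0.271), so the numbers were taken to pair the samples, and a fit with the replicate as a block is given where it changes the call of a named member or moves a list's count by over 1.5 times. Members and lists were chosen with earlier results of these data known. Named genes were members with the largest called changes or, where few were called, the smallest p, the stalk proteins, Rpsa, the paralogs with their namesakes, up to 4 genes a list by p, and check genes. Members named for groups that did not overlap, for pairs in 1 direction, for the start motif or as examples of bright genes were picked after their values were seen. Alternatives were 3 other scalings, quantile normalization on other probe sets, pseudocounts, a filter on dim genes, other probe set choices, other limma settings, the methods' t-test, the block and leaving out arrays. Precision is limited by the number of arrays. The analysis was tested on simulated data. Python 3.11.15 was used for promoters and figures.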

Additional observations from a re-analysis of the deposited data

How the results depend on the processing

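For the 50 members, the values given here are counts that moved by over 1.5 times or to or from 0. Medians that moved by more than the spread between replicates and signs that turned are given as well. Shares of all genes called are given only for the ways of scaling and for the replicate block on all arrays. Counts under the other settings are therefore not set against a background, and a change in them is not specific to the members. In control cells the count of members called higher under LPS (0) became 1 with a pseudocount of 64, without dim genes, with only the arrays compared, with the replicate block and with the methods' t-test at an unadjusted p under 0.01. The count called lower (1) became 2 with the mean of a gene's probe sets and with limma's trend and robust options, and 4 with that t-test. In ΔTrspM cells the count called higher (1) became 32 with arrays centred on their 75th percentile (25.8% of all genes) and 0 with no scaling (1.43%), with the t-test after Benjamini-Hochberg adjustment and with replicate 2 left out of all groups under the block. The count called lower (1) became 2 without probe sets of cross-hybridising design and with the t-test at an unadjusted p under 0.01, and 0 with the adjusted t-test, where Rpl12 had 0.0965 in control and 0.0721 in ΔTrspM cells.

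In the average, the count called higher (2) became 1 with median centring, with the mean of probe sets and without replicate 2 under the block, 36 with centring on the 75th percentile and 0 with no scaling. The count called lower (2) became 1 with the 75th percentile and without replicate 2, with or without the block. It became 4 with a pseudocount of 64 and without dim genes, and 5 without cross-hybridising probe sets. It became 6 with the mean of probe sets and with trend and robust options. Except with the 75th percentile, the share of all genes called lower under these settings is not given here. Whether these rises went beyond a change in the calls of all genes was not tested. The members' median log2 fold change in control cells, ΔTrspM cells and the average was 0.1862, 0.2468 and 0.1994 with median centring, and 0.4151, 0.8156 and 0.5983 with the 75th percentile. With no scaling it was -0.4576 in ΔTrspM cells and -0.2995 in the average. The genotype medians became 0.0921 (unstimulated), 0.4729 (LPS) and 0.3058 (average) with the 75th percentile, 0.0914 (average) with median centring, and -0.423 (LPS) and -0.2147 (average) with no scaling. The interaction median became 0.3796 with the 75th percentile and -0.3712 with no scaling.

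Centring on the 75th percentile turned the average LPS difference of Rplp0 (0.7124), Rplp2 (0.7528), Rpl22 (0.6113), Rpl7 (0.6818), Rps4x (0.755) and Rps19 (0.4136), and no scaling turned Rpl39 (-0.3365 in ΔTrspM cells, -0.0614 in the average). Over all genes the median in the average was 0.447 with the 75th percentile and -0.4507 with no scaling. Beyond this shift of all genes the cause was not tested. The replicate block changed the calls of Rpl39 in control cells and Rps27l in the average and no other call among the named members. Leaving out replicate 2 in all groups was chosen after seeing the data.

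Leaving out 1 array gave members' medians of -0.1409 to -0.0832 in control cells, -0.1433 to -0.0437 in ΔTrspM cells and -0.1403 to -0.0887 in the average. The counts called higher ran from 0 to 1 (1 without ΔTrspM LPS replicate 2), 0 to 2 and 1 to 3, and those called lower from 1 to 1, 1 to 1 and 1 to 3. Genotype medians ran from -0.0117 to 0.0249 unstimulated, -0.0119 to 0.1062 after LPS and 0.0015 to 0.0547 in the average, the interaction from -0.0014 to 0.0825, and the counts called were 0 to 0. Bright probe sets near the top of the scale limit how large a rise can appear, and dim ones near the pseudocount how large a fall.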
